A study of Mus musculus with 6 samples.

Results

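Heart muscle cells of mice that had transverse aortic constriction and were treated with BIX-01294 (TAC_BIX) were compared with those of sham-operated mice (sham). The comparison uses 4 of the 6 arrays of the series, 2 per group, taken by their labels. Earlier results of these data were known when the groups were chosen. The mice were C57BL/6J, and RNA of cell populations enriched for cardiomyocytes was hybridised as biotin-labelled cRNA to 1-colour Illumina mouse whole-genome bead arrays. TAC_BIX mice had aortic constriction and received BIX-01294 for 1 week from subcutaneous osmotic pumps. TAC_DMSO mice, whose 2 arrays are used as a side value, had constriction and DMSO. Sham mice had sham surgery, with no drug or vehicle named. No transgene or induced mutation is named for any group. Age, sex, time of day at collection, the number of mice behind an array and the duration of DMSO were not stated in the labels. The design text calls the arrays biological replicates. TAC_BIX and sham differ in surgery, drug and possibly vehicle, so these cannot be told apart in this comparison. TAC_DMSO minus sham is given beside some values. It shares the sham arrays with TAC_BIX minus sham, so the pair is not independent.

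Banding the transverse aorta raises the pressure that the left ventricle has to overcome. Cardiomyocytes respond by growing and by turning on genes of the fetal heart, such as those of skeletal actin and the natriuretic peptides, while fibroblasts lay down collagen and other matrix. BIX-01294 inhibits the enzymes G9a and GLP, encoded by Ehmt2 and Ehmt1, which methylate lysine 9 of histone H3, a mark of silent chromatin.

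An array detected between 36.7% and 40.9% of its 45281 probes. The TAC_BIX arrays detected 18072 and 18501 probes, the TAC_DMSO arrays 18210 and 17101, and the sham arrays 16634 and 16827. Across genes, the replicates correlated with r = 0.988 in TAC_BIX and 0.986 in sham, and TAC_BIX arrays correlated with sham arrays at r = 0.959 to 0.976. Of 10 markers that define cardiomyocytes, 9 were measured, and Actn2, the sarcomeric alpha-actinin gene, lay at 14.80 and 14.76 in TAC_BIX and 14.69 and 14.62 in sham, near the highest signal of 14.98. Levels are normalized log2 signals, on which a step of 1 is a 2-fold change. They are compared between samples for the same probe only. Differences are TAC_BIX minus sham unless another pair is named, with the standard error (SE) of the fitted model.

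Of 10538 genes tested with limma, 701 (6.65%) were called at a Benjamini-Hochberg adjusted p under 0.05. In TAC_BIX 289 (2.74%) were higher and 412 (3.91%) were lower. The called differences were at least 0.69 in size, and 442 exceeded a 2-fold change. The median difference of all genes was -0.0036. The same fit called 43 genes (0.408%) in TAC_DMSO minus sham and 0 in TAC_BIX minus TAC_DMSO, where 2090 genes had an unadjusted p under 0.05. The TAC_BIX and sham arrays did not overlap for 6157 genes (58.4%), among them all 701 called. These counts rest on every one of the 4 arrays. Without TAC_BIX replicate 2, 0 genes were called in TAC_BIX minus sham and 1465 had an unadjusted p under 0.05. Without sham replicate 2, 0 were called with 2100 at that unadjusted level, and without sham replicate 1 the 2 called were Ano10 and Rgs5. Without TAC_BIX replicate 1, 216 were called. In each of these fits all 701 genes kept their direction. This had to be so, because their TAC_BIX and sham arrays did not overlap. Where a named gene lost its call in at least 4 of up to 11 alternatives to the processing or the fit, all with all 4 arrays, this is said beside it. The gene lists were chosen with earlier results of these data known, so their counts and shares called are descriptions.

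**Figure D1:**
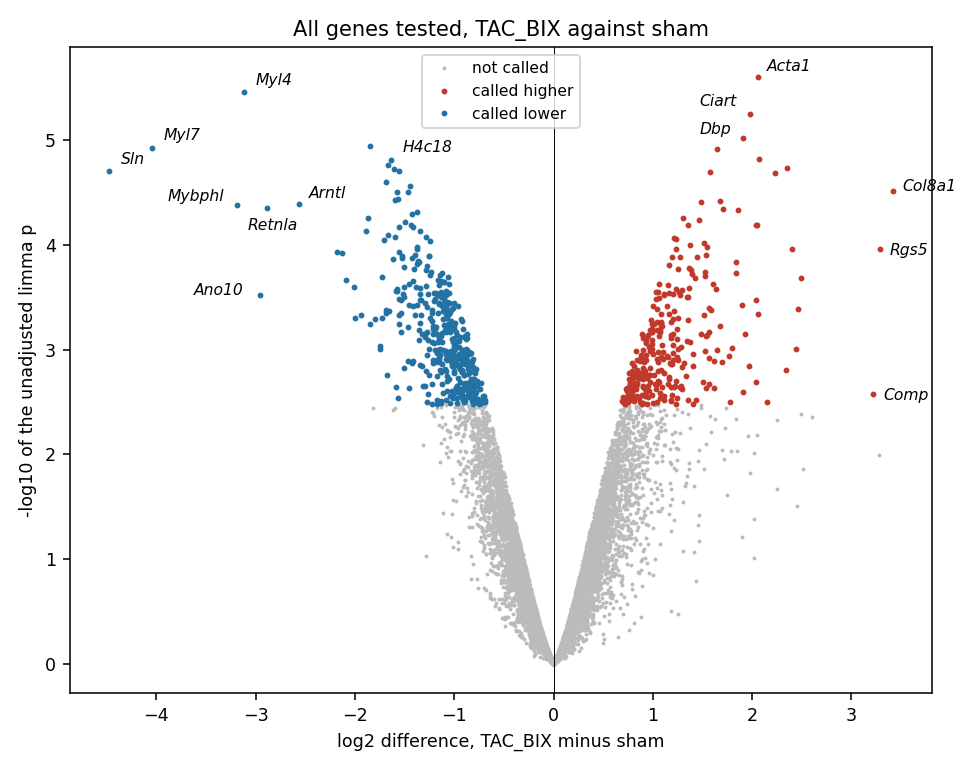
Log2 difference of each of 10538 genes, TAC_BIX minus sham (x axis), against the -log10 of the unadjusted limma p (y axis). Grey points were not called, red points (289) were called higher and blue points (412) called lower in TAC_BIX; Sln, Myl7, Mybphl and Myl4 lie furthest to the lower side and Col8a1, Rgs5 and Comp to the higher side.

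The largest falls in TAC_BIX were those of genes for atrial contractile proteins. Sln encodes sarcolipin, which restrains the calcium pump of the sarcoplasmic reticulum and is found mainly in atria in the mouse heart. It had log2 levels of 6.03 and 5.77 in TAC_BIX, 8.52 and 10.07 in TAC_DMSO, and 9.97 and 10.79 in sham. Both TAC_BIX arrays lay below all 4 others, and TAC_DMSO lay partly within the sham range. Sln was 22.3-fold lower in TAC_BIX than in sham (-4.48 ± 0.48 log2, SE, limma adjusted p = 0.0136). Its difference lay between -4.89 and -2.80 over 17 alternatives to the processing, the fit or the arrays used.

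Myl7, the atrial myosin regulatory light chain gene, was at 6.27 and 6.13 in TAC_BIX, 8.71 and 10.04 in TAC_DMSO and 9.97 and 10.52 in sham. It fell by 4.04 ± 0.40 on the log2 scale (limma adjusted p = 0.0136), with a smallest difference of -2.59 over the 17 alternatives. Myl4, the atrial and fetal myosin essential light chain gene, was at 8.73 and 8.65 in TAC_BIX, 11.24 and 11.99 in TAC_DMSO and 11.65 and 11.98 in sham. It was 8.71-fold lower in TAC_BIX than in sham (limma adjusted p = 0.0136). The TAC_BIX arrays of both light chain genes were again the lowest of the 6. Mybphl, a myosin-binding protein gene of atria and the conduction system, was at 5.83 and 5.64 in TAC_BIX, 7.95 and 9.21 in TAC_DMSO and 8.71 and 9.14 in sham. It fell by 3.18 ± 0.38 on the log2 scale, with a smallest difference of -1.58 over the 17 alternatives.

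These falls were also measured against TAC_DMSO in the same fit, where none was called at the settings used here. TAC_BIX minus TAC_DMSO was -3.39 for Sln, -3.17 for Myl7, -2.93 for Myl4 and -2.84 for Mybphl. The limma adjusted p was 0.0590 for Myl4 and 0.0652 for each of the other 3. The call against TAC_DMSO depends on the settings: all 4 genes were called with log2 quantile values, an offset of 50, median scaling and the intensity trend, and 0 of the 4 with the replicate block or without a detection filter. On the authors' processed values only Myl4 was called (adjusted p = 0.0202). TAC_DMSO minus sham was -1.09 for Sln, -0.87 for Myl7, -0.20 for Myl4 and -0.34 for Mybphl, and none of these was called.

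The atrial marker list had 8 of 9 genes measured, and 62.5% of these were called, against 6.65% of all genes. Myl4, Myl7, Sln and Stard10 (-1.13) were called lower, Nppa was called higher, and Tbx5 (-0.49), Pam (-0.06) and Dkk3 (-0.01) did not pass. The summed signal of the list was 29020 and 25100 linear units in TAC_BIX, 30040 and 35760 in TAC_DMSO, and 16210 and 20820 in sham, and Nppa, also a gene of ventricular stress, makes up much of it. A smaller share of atrial cells and less RNA per cell cannot be told apart in these bulk samples, and the same holds for every cell type described here. How much atrial tissue was in each preparation is not stated in the labels, and its part in these falls was not tested.

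**Figure D2:**
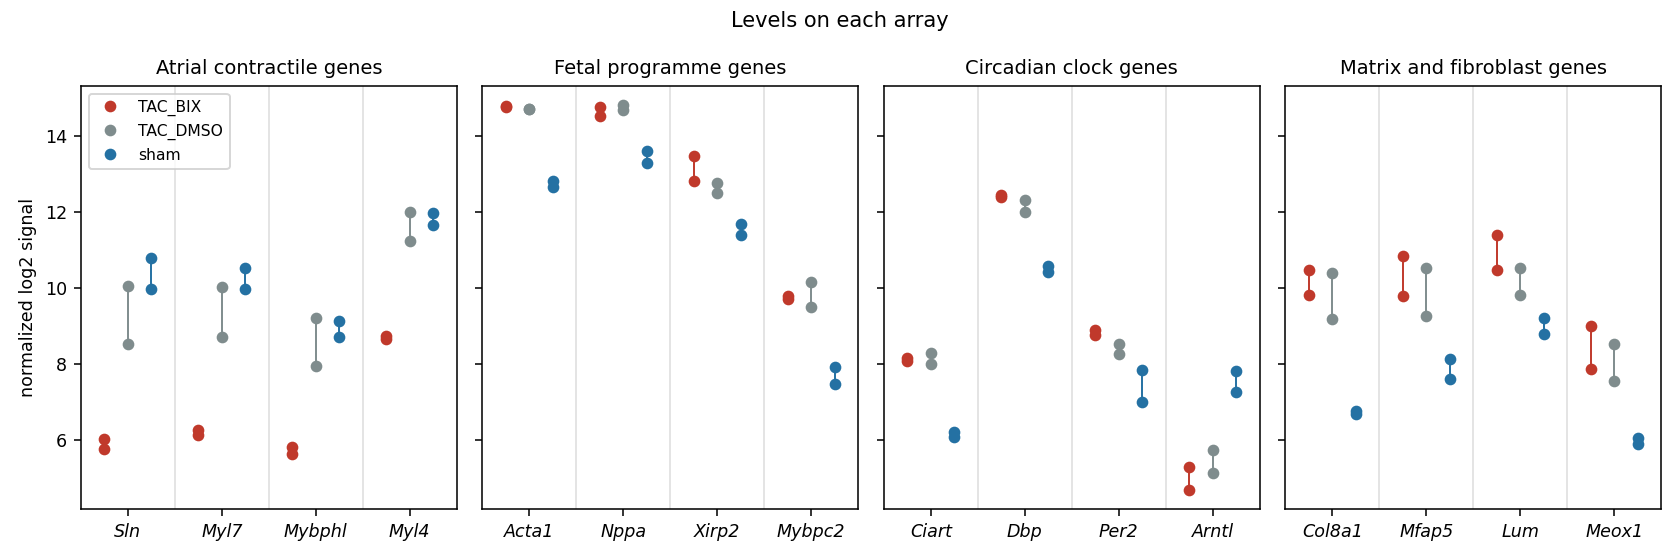
Normalized log2 signal (y axis) of 16 genes on each array, with TAC_BIX (red), TAC_DMSO (grey) and sham (blue) from left to right; each point is 1 array and a line joins the 2 arrays of a group. The TAC_BIX points of Sln, Myl7, Mybphl and Myl4 lie below all others, while Acta1, Nppa, Ciart and Dbp lie together in TAC_BIX and TAC_DMSO and above sham.

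Of 20 measured genes of the fetal and hypertrophic programme, 5 were called higher in TAC_BIX (25%, against 2.74% of all genes) and 0 lower. Acta1, skeletal alpha-actin and a classic marker of hypertrophy, was at 14.79 and 14.76 in TAC_BIX, 14.70 and 14.71 in TAC_DMSO and 12.65 and 12.80 in sham. It rose 4.15-fold (2.05 ± 0.17 log2, limma adjusted p = 0.0136), and its TAC_BIX signals were close to the ceiling. Nppa, the atrial natriuretic peptide gene, was at 14.76 and 14.53 in TAC_BIX and 13.28 and 13.60 in sham, and rose 2.31-fold (adjusted p = 0.0223). The ceiling can compress the fold of both genes. Of the 11 alternatives, Nppa was not called with median scaling (adjusted p = 0.0604). Neither gene was called against TAC_DMSO: TAC_BIX minus TAC_DMSO was 0.07 for Acta1 and -0.09 for Nppa (adjusted p = 0.848 and 0.828).

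Mybpc2 encodes the form of myosin-binding protein C found in fast skeletal muscle. It was at 9.80 and 9.70 in TAC_BIX, 10.17 and 9.51 in TAC_DMSO and 7.93 and 7.47 in sham. Xirp2, an actin-binding protein of the intercalated disc, was at 12.82 and 13.46 in TAC_BIX, 12.50 and 12.75 in TAC_DMSO and 11.40 and 11.68 in sham. Both were called higher than in sham, with differences of 2.05 ± 0.26 and 1.60 ± 0.25. Pdlim5, a Z-disc scaffold gene, rose by 1.27 ± 0.20. The median difference of the 20 genes was 0.67, against -0.0036 for all genes, and 0.55 in TAC_DMSO minus sham. The count called ranged over 4 to 10 in the settings that keep all 4 arrays.

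Other members of the panel did not pass. Nppb, the B-type natriuretic peptide gene, was at 13.86 and 13.91 in TAC_BIX and 13.47 and 13.20 in sham (adjusted p = 0.140). Myh7, the fetal beta-myosin heavy chain gene, was at 7.77 and 10.69 in TAC_BIX, 7.56 and 8.78 in TAC_DMSO and 5.95 and 7.60 in sham, and the spread within each group left its difference of 2.45 ± 0.93 uncalled (adjusted p = 0.149). Myh6, the adult alpha-myosin heavy chain gene, and Atp2a2, the calcium pump gene, differed by -0.01 and 0.06 with all signals at 14.55 or above, so a change could be hidden by the ceiling.

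Among 20 measured sarcomere genes, Myot (myotilin, 0.90) rose and Tnni3 (cardiac troponin I, -0.80) fell, 10% called against 6.65% of all genes, with a median of 0.09. Tnni3 was also the 1 gene called of 9 cardiomyocyte markers, whose summed signal was 167200 and 168400 linear units in TAC_BIX and 169000 and 176800 in sham. Of 15 calcium cycling genes, Sln and Hrc (-1.21), a calcium-binding protein of the sarcoplasmic reticulum, fell and 0 rose (13.3% called). Of 14 potassium and sodium channel genes 3 fell and 1 was called higher (28.6% called, against 6.65% of all genes). They were Scn4b (-1.75), a sodium channel beta subunit, Kcnv2 (-1.51), a modifier of potassium channels, and Kcnj11 (-1.03), the pore of the ATP-sensitive potassium channel. Kcna5 was below detection in sham and at least 1.46-fold higher in TAC_BIX, a call lost in 5 alternatives. TAC_DMSO minus sham was -1.01, -1.78 and -0.80 for the 3 that fell. Of 5 measured skeletal muscle markers, Myl1 rose by 1.25 and Mylpf fell by 1.46 (40% called). Both are myosin light chain genes.

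Genes of the extracellular matrix were higher in TAC_BIX. Col8a1, a short-chain collagen of vessel walls and scar, had the largest rise of all called genes. It was at 9.81 and 10.49 in TAC_BIX, 10.39 and 9.18 in TAC_DMSO and 6.77 and 6.69 in sham, a 10.7-fold rise (3.42 ± 0.39 log2, limma adjusted p = 0.0158). Comp, cartilage oligomeric matrix protein, was at 7.07 and 9.83 in TAC_BIX, 6.67 and 6.34 in TAC_DMSO and 5.43 and 5.03 in sham. TAC_BIX replicate 2 carried much of the difference of Comp (3.22 ± 0.74, adjusted p = 0.0450), and Comp lost its call in 6 of the 11 alternatives, the authors' processed values among them.

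All 34 measured matrix genes had a difference above 0. Of these, 9 (26.5%) were called higher, against 2.74% of all genes, and 32 had TAC_BIX arrays above both sham arrays, against 29.8% of all genes. They included Col8a1, Ccn5 (2.49), a matricellular gene, Mfap5 (2.45), of elastic fibres, Lum (1.93), a small proteoglycan, and Col6a1 (1.80), a collagen. Mfap5 and Col6a1 each lost the call in 4 alternatives. The main fibrillar collagens did not pass. Col1a1 was at 7.70 and 9.68 in TAC_BIX, 10.34 and 8.20 in TAC_DMSO and 6.13 and 6.76 in sham (adjusted p = 0.123). Col3a1 was at 8.06 and 8.98 in TAC_BIX, 9.45 and 7.70 in TAC_DMSO and 6.59 and 6.76 in sham (adjusted p = 0.0819). Ccn2, connective tissue growth factor, differed by 0.98 ± 0.37 (adjusted p = 0.144).

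The matrix level differed between the 2 TAC_BIX arrays and between the 2 TAC_DMSO arrays, while the sham arrays lay close together. Set against each gene's mean over all 6 arrays, the extracellular matrix genes had a median of 0.07 and 1.08 log2 in TAC_BIX, 0.84 and -0.22 in TAC_DMSO and -1.02 and -0.99 in sham. The median difference from sham was 1.51 with all arrays, 0.99 without TAC_BIX replicate 2, when 0 members were called, and 2.06 without TAC_BIX replicate 1, when 8 were. On the authors' processed values the count of extracellular matrix genes called was 4 and their median 1.02, with no detection filter it was 1, and with median scaling 18. The median in TAC_DMSO minus sham was 1.23.

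Of 15 fibroblast markers, 13 were measured, 5 were called higher (38.5%, against 2.74% of all genes) and 8 did not pass. Those called were Col8a1, Mfap5 and Lum, which the matrix list also holds, Meox1 (2.46), a homeobox factor of activated fibroblasts, and Islr (2.04), which was detected on 1 of the 2 sham arrays and lost its call in 4 alternatives. The summed signal of the fibroblast markers was 15780 and 23570 in TAC_BIX, 16180 and 10860 in TAC_DMSO, and 11040 and 11430 in sham. The part of a changed share of fibroblasts in the matrix result was not tested. Tgfb2, a transforming growth factor beta ligand, rose by 1.27 and lost its call in 4 alternatives. It was the only member called of 18 in its pathway list (5.56%, against 6.65% of all genes). Timp3, an inhibitor of matrix proteases, rose by 1.45, with 2 of its 3 kept probes above 0. Of 21 integrin and laminin genes, Itga1, a collagen receptor subunit, rose by 1.23 and Itgb6, an epithelial integrin gene, fell by 1.29. The share called was 9.52%, against 6.65% of all genes. Itga1 lost its call in 7 of the 11 alternatives.

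Vessel wall genes gave 2 more of the largest changes. Rgs5, a pericyte marker that limits G protein signalling, was at 8.81 and 9.37 in TAC_BIX, 8.27 and 8.79 in TAC_DMSO and 6.54 and 5.07 in sham, a 9.77-fold rise (limma adjusted p = 0.0195). Cav2, a caveolin gene, was below detection in sham and at least 3.41-fold higher in TAC_BIX. Of 12 smooth muscle and pericyte markers, Rgs5, Mylk (0.96) and Notch3 (0.87) were called higher (25%, against 2.74% of all genes) and 9 were not called. Notch3 lost its call in 4 alternatives. The summed signal of the 12 was 9480 and 10150 in TAC_BIX and 9242 and 9139 in sham. Of 19 endothelial markers, Flt1 (1.18), a VEGF receptor, and Pecam1 (1.24) were called higher (10.5%, against 2.74% of all genes) and 17 were not called. Pecam1 had 1 of 2 kept probes above 0. The endothelial sum was 9157 and 10910 in TAC_BIX and 8354 and 7214 in sham.

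The remaining large rises, each among the 15 largest, were Svep1, a matrix protein gene below detection in sham and at least 4.15-fold higher, Gask1b (2.35), Itgbl1 (2.35), Angptl7 (2.15, detected on 1 sham array), and Clic5 (2.07), an intracellular chloride channel gene. Itgbl1 and Angptl7 each lost the call in 5 alternatives. Asns, asparagine synthetase, was at 7.29 and 7.03 in TAC_BIX and 5.52 and 4.68 in sham, where 1 array detected it. With Asns, the amino acid response controlled by ATF4 had 3 of 19 measured genes called higher (15.8%, against 2.74% of all genes) and 0 lower. The other 2 were Mthfd2 (1.38), of mitochondrial folate metabolism, and Trib3 (1.20), a pseudokinase gene detected on 1 sham array. TAC_DMSO minus sham was 1.55, 1.11 and 0.64 for the 3 genes.

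Circadian clock genes differed between TAC_BIX and sham in both directions. The clock is a loop in which BMAL1, encoded by Arntl, pairs with CLOCK, binds E-boxes and turns on the Per genes, Ciart and Dbp, while the PER proteins and CIART repress it. ROR and REV-ERB receptors act on Arntl through elements with the core AGGTCA. To show these letters, the promoter windows of Ciart and Arntl are given from RefSeq (build GRCm38.p6), 250 bases before to 50 after the annotated start, with the motif in capitals: E-boxes (CACGTG) for Ciart at chr3:95882179-95882478, minus strand, and AGGTCA for Arntl at chr7:113207261-113207560, plus strand.
Ciart: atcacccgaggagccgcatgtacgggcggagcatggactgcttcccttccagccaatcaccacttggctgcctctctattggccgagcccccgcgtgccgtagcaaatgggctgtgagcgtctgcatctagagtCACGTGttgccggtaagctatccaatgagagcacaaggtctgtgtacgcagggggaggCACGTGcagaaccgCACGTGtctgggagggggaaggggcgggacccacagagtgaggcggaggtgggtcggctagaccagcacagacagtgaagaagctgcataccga
Arntl: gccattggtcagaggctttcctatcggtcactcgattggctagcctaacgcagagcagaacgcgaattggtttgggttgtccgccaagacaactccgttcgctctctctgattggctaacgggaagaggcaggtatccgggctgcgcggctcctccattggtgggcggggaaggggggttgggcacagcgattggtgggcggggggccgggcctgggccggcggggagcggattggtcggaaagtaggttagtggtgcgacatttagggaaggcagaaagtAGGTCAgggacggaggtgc

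The Ciart window held 3 E-boxes, whose first bases lie at -116, -58 and -44 from the start, and both strands were searched. The windows of Dbp and Per3 held no CACGTG. RefSeq gives Arntl 2 overlapping windows, and AGGTCA was found only in the one shown, at +31. CACGTG was present in 7.15% of all 32851 windows and in 9.91% of those of tested genes. AGGTCA was present in 16.3% and 12.4% of these. For the 16 measured clock genes, 13 had windows, and 4 of their 21 windows held CACGTG. A match is a description of letters, not a measured binding site.

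Ciart was at 8.16 and 8.09 in TAC_BIX, 8.28 and 8.02 in TAC_DMSO and 6.09 and 6.21 in sham. Dbp, a clock output transcription factor gene, was at 12.39 and 12.44 in TAC_BIX, 12.31 and 11.99 in TAC_DMSO and 10.44 and 10.58 in sham. Both rose against sham, by 1.97 ± 0.18 and 1.91 ± 0.18 (limma adjusted p = 0.0136 each). Per2 was at 8.76 and 8.90 in TAC_BIX, 8.54 and 8.26 in TAC_DMSO and 7.84 and 7.02 in sham, a rise of 1.40 ± 0.28. Per3 was below detection in sham and at least 2.55-fold higher in TAC_BIX. Arntl was at 4.69 and 5.29 in TAC_BIX, where 1 array detected it, at 5.13 and 5.73 in TAC_DMSO and at 7.83 and 7.27 in sham. It fell by 2.56 ± 0.30 (adjusted p = 0.0161), with a smallest difference of -0.83 over 17 alternatives.

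So 4 of the 16 measured clock genes were called higher and 1 lower, 31.2% against 6.65% of all genes. Nr1d1, which encodes REV-ERB alpha, was at 6.86 and 6.89 in TAC_BIX and 7.95 and 7.96 in sham and just missed the call (adjusted p = 0.0504), while Nr1d2, Per1 and Clock differed by 0.05, -0.26 and -0.43. TAC_BIX minus TAC_DMSO was -0.03 for Ciart, 0.26 for Dbp, 0.43 for Per2, 0.68 for Per3 and -0.44 for Arntl, and none was called. The time of collection moves these genes in normal hearts, and its part in this result was not tested.

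Several histone H4 genes fell in TAC_BIX. H4c18 was at 6.09 and 6.21 in TAC_BIX, 7.53 and 7.65 in TAC_DMSO and 7.86 and 7.72 in sham, a 3.11-fold fall (limma adjusted p = 0.0136). H4c1 was at 8.86 and 8.77 in TAC_BIX, 10.09 and 9.92 in TAC_DMSO and 10.32 and 10.25 in sham, and H4c9 was at 7.12 and 7.03 in TAC_BIX, 8.30 and 8.22 in TAC_DMSO and 8.35 and 8.67 in sham. In each of the 3 the TAC_DMSO arrays lay near sham and above TAC_BIX. In the histone list 5 of 17 measured genes fell (29.4%, against 3.91% of all genes) and 0 rose; H4c8 (-1.08) and H2az2 (-1.13), a variant H2A gene, were the other 2. The list count stayed at 5 in all 11 alternatives to the processing or the fit. H4 genes are near-identical copies, so 1 probe can read several of them.

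Some families of housekeeping genes had many members called lower. They were grouped by gene symbol after their values had been seen, so their counts are descriptions. The symbol alone decided membership, so a family can hold genes that are not subunits, Cox10 and Ndufs5-ps among them. Against 3.91% of all genes called lower, 6 of 10 H4 genes were called lower (60%). Of 18 genes with Snrp or Lsm symbols, named Sm and LSm genes here, 8 (44.4%) were called lower. Of 42 genes for subunits and assembly factors of respiratory complex I 17 (40.5%) were. Of 56 cytosolic ribosomal protein genes 16 fell (28.6%), of 21 cytochrome c oxidase genes 7 (33.3%), and of 16 ATP synthase genes 5 (31.2%). No member of these 6 families was called higher. Their median differences were -1.26, -0.74, -0.69, -0.69, -0.57 and -0.58 in the order given. In TAC_DMSO minus sham the medians were -0.11, 0.21, -0.05, -0.00, -0.16 and -0.12. The counts moved with the settings. Cytosolic ribosomal protein genes had 38 called lower with median scaling, 2 with no detection filter and 0 with the replicate block. The complex I genes had 28, 9 and 7 called lower under these 3 settings, the cytochrome c oxidase genes 14, 6 and 4, the ATP synthase genes 9, 1 and 2, the Sm and LSm genes 8, 4 and 6, and the H4 genes 6 under each. The medians of the 6 families lay below 0 in all 17 alternatives. The replicate block, the intensity trend and the fits without TAC_DMSO arrays leave these medians as they are. That of the Sm and LSm genes was -0.35 when the kept probes of a gene were averaged, and that of the H4 histone genes was -0.75 on the authors' processed values.

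Snrpf, a core Sm protein of spliceosomal RNPs, was at 8.27 and 7.27 in TAC_BIX, 9.40 and 8.99 in TAC_DMSO and 9.51 and 10.04 in sham. Ndufa5, a complex I subunit gene, was at 13.06 and 12.63 in TAC_BIX, 13.51 and 13.63 in TAC_DMSO and 14.07 and 14.02 in sham. Rps16, of the small ribosomal subunit, was at 11.29 and 11.02 in TAC_BIX, 12.60 and 12.14 in TAC_DMSO and 12.13 and 12.35 in sham. These 3 genes fell by 2.00, 1.21 and 1.09, with both TAC_BIX arrays below the sham arrays. In the lists chosen by function, also with earlier results of these data known, 3 of 20 cytosolic ribosome genes fell (Rpl30, Rps16 and Rpl37). Of 29 respiratory chain and ATP synthase genes 4 fell (Cox7b, Ndufa5, Cox7a1 and Ndufa1). These were 15% and 13.8%, against 3.91% of all genes, and 0 rose. The list medians were -0.51 and -0.27. Cox7a1 lost its call in 4 alternatives. Among genes named after their values were seen, Atp5k, a small ATP synthase subunit gene, fell by 1.85 and Rps26 by 1.53. By contrast, 4 of 194 zinc finger genes with Zfp symbols were called higher and 4 lower (4.12% called). Of 43 genes with Psm symbols, named proteasome genes here, only Psmd5 (1.04) was called (2.33%), against 6.65% of all genes.

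**Figure D3:**
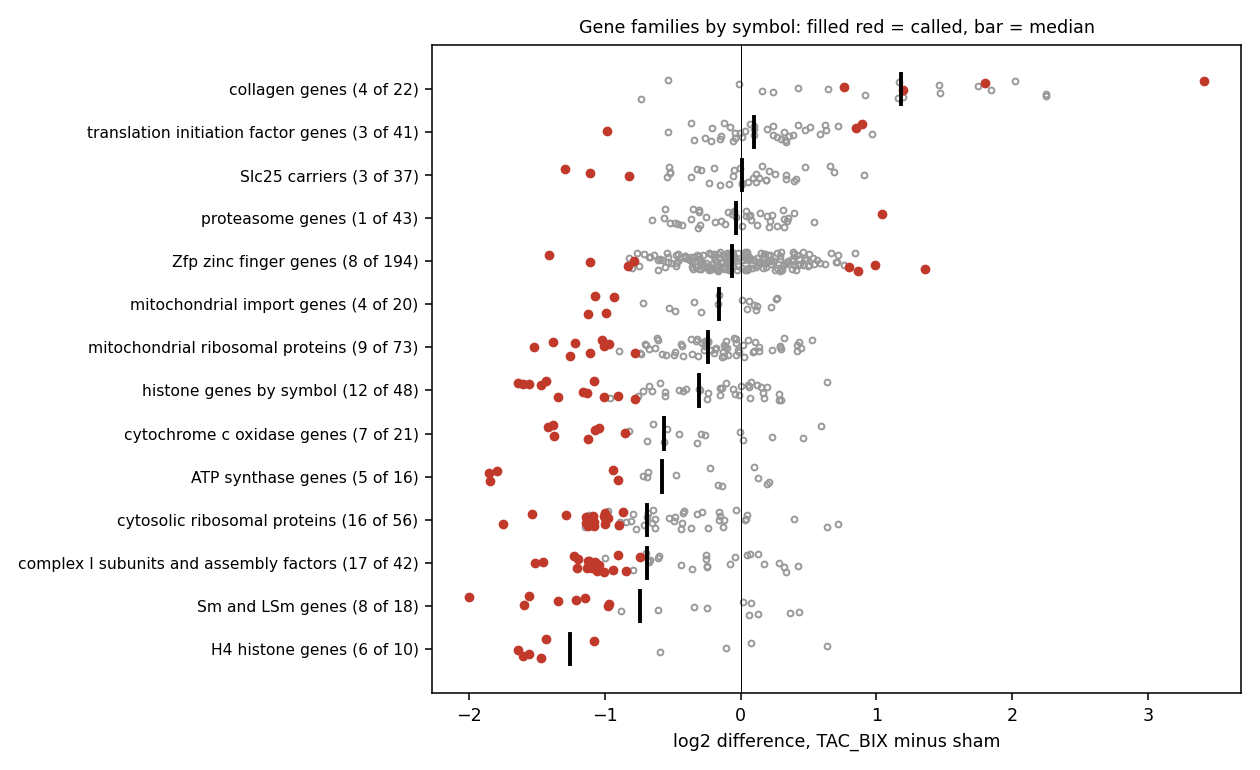
Log2 difference, TAC_BIX minus sham (x axis), of every measured gene in 14 families defined by symbol (rows, with called of measured); filled red points were called, open points were not, and the black bar is the family's median. The H4, Sm and LSm, complex I, ribosomal, ATP synthase and cytochrome c oxidase rows lie mostly below 0 and the collagen row mostly above.

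Gene length moved with these falls. The genomic span of a gene in RefSeq was known for 10520 of the 10538 genes. Its median was 7.91 kb for genes called lower, 35.7 kb for those called higher and 22.5 kb for all genes. Of 1370 genes spanning under 5 kb, 150 (10.9%) were called lower and 23 (1.68%) higher in TAC_BIX, while of the 1342 genes in the longest of 6 span bins, 26 (1.94%) were called lower and 52 (3.87%) higher. The median difference of the genes under 5 kb was -0.17, and it was 0.07 in TAC_DMSO minus sham. The median spans of the 6 families above were 0.41, 7.56, 7.54, 3.31, 6.27 and 7.15 kb in the order given. RNA quality was checked by the submitters, but the labels give no value, and the part of length or RNA quality in the falls was not tested.

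**Figure D4:**
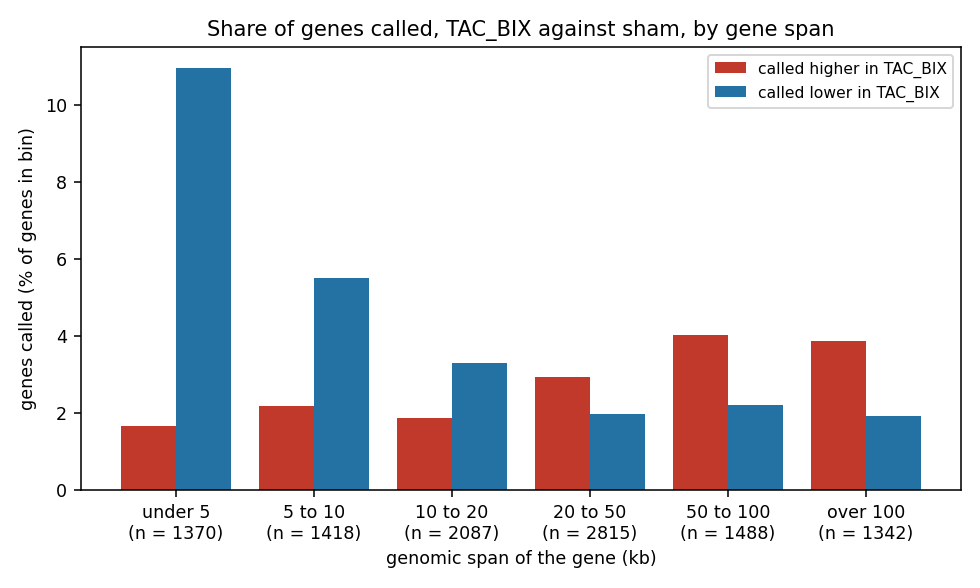
Percent of genes called higher (red) and called lower (blue) in TAC_BIX against sham (y axis) in 6 bins of genomic gene span in kb (x axis, with the number of genes). The share called lower is 10.9% under 5 kb and 1.94% in the bin of the longest genes.

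Calls in lists of fuel metabolism were few. The share called was 9.68% of 31 fatty acid oxidation genes, 4.76% of 21 glycolysis genes and 4.55% of 22 citrate cycle and pyruvate dehydrogenase genes, around the 6.65% of all genes. Of the fatty acid oxidation genes 2 fell and 1 rose, with a median of 0.01. Acot1, a cytosolic acyl-CoA thioesterase gene, was at 8.95 and 7.94 in TAC_BIX, 9.25 and 9.37 in TAC_DMSO and 10.37 and 10.71 in sham, a 4.26-fold fall (limma adjusted p = 0.0223). Pdk4, which blocks entry of pyruvate into the citrate cycle, fell by 1.46. Acot2, the mitochondrial relative of Acot1, rose by 1.16, but only 1 of its 3 kept probes lay above 0, and it was not called when they were averaged. Of the glycolysis genes, Pfkp (1.52), a phosphofructokinase gene, rose and 0 fell; 17 lay above 0, with a median of 0.40, against -0.01 in TAC_DMSO minus sham. Of the citrate cycle and pyruvate dehydrogenase genes, Sdha was below detection in TAC_BIX by its 1 kept probe and at least 1.59-fold lower, a call lost in 4 alternatives. Of 15 PPAR and PGC-1 regulators 0 were called.

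Immune genes moved in different directions. Retnla, a gene of alternatively activated macrophages, was at 5.04 and 4.56 in TAC_BIX, where 1 array detected it, at 4.58 and 5.11 in TAC_DMSO and at 8.17 and 7.20 in sham, a 7.40-fold fall (limma adjusted p = 0.0162). Retnla differed by -2.89 on the log2 scale, and by -0.96 at the smallest over 17 alternatives. It was the 1 gene called of 19 macrophage and leukocyte markers (5.26%, against 6.65% of all genes). Their summed signal was 9800 and 11340 in TAC_BIX, 18350 and 8936 in TAC_DMSO, and 6968 and 13510 in sham. S100a8, a calcium-binding protein of neutrophils, was at 5.52 and 6.17 in TAC_BIX, 7.98 and 7.58 in TAC_DMSO and 7.51 and 7.24 in sham, and fell by 1.53. It was the 1 gene called of 7 neutrophil markers (14.3%).

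Of 32 measured interferon response genes, 3 were called higher (9.38%, against 2.74% of all genes): Ifit2 (1.21) and Usp18 (1.11), induced by type I interferon, and Ddx58, which encodes the RNA sensor RIG-I and was at least 1.97-fold higher, being below detection in sham. Usp18 lost its call in 5 alternatives and Ddx58 in 4. Rsad2, an antiviral gene, differed by 1.08 ± 0.27 and just missed the call (adjusted p = 0.0583). The median of the interferon response list was 0.34, against 0.80 in TAC_DMSO minus sham. It was 0.12 without TAC_BIX replicate 2 and 0.60 without TAC_BIX replicate 1, and 0 members were called on the authors' processed values. Of 10 MHC class II and antigen presentation genes 0 were called, against 6.65% of all genes.

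Globin transcripts varied within groups: Hba-a1 was at 12.86 and 10.71 in TAC_BIX, 13.60 and 14.76 in TAC_DMSO and 12.72 and 9.55 in sham. Of 6 erythroid, 4 epicardial, 4 Schwann and neuronal, 2 lymphocyte and 1 adipocyte markers measured, 0 were called, against 6.65% of all genes. Most markers of the last 2 were absent, as 11 of 13 lymphocyte and 8 of 9 adipocyte markers were not measured above the detection filter or had no probe.

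The genes of the drug's targets did not differ detectably. Ehmt2 was at 8.14 and 8.38 in TAC_BIX and 8.04 and 7.95 in sham (limma adjusted p = 0.364), and Ehmt1 was at the detection floor, with 1 TAC_BIX and 0 sham arrays detecting it. BIX-01294 acts on the enzymes, so these levels do not check the treatment. Of 18 genes of the machinery that writes, reads and removes H3K9 methylation, 1 was called (5.56%, against 6.65% of all genes). This was Cbx3, heterochromatin protein 1 gamma, at 8.70 and 9.30 in TAC_BIX, 8.70 and 8.84 in TAC_DMSO and 6.86 and 7.46 in sham. Only 1 of its 2 kept probes lay above 0.

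Among 24 other chromatin regulators 4 were called higher (16.7%, against 2.74% of all genes) and 0 lower. Smyd1, a muscle-restricted methyltransferase gene needed for heart development, was at 7.96 and 8.15 in TAC_BIX, 7.40 and 8.18 in TAC_DMSO and 6.42 and 6.54 in sham, a 2.97-fold rise. Crebbp (1.26), a histone acetyltransferase gene detected on 1 sham array, and Rbbp4 (1.05), a histone-binding subunit of several complexes, also rose, and Ezh1 was below detection in sham and at least 1.26-fold higher. The call of Ezh1 was lost in 8 of 10 alternatives, with an offset of 50, median scaling and the authors' processed values among them. Tbx20, a cardiac T-box factor, was at 7.52 and 7.82 in TAC_BIX and 6.07 and 5.92 in sham, a rise of 1.68 in which 2 of 3 kept probes lay above 0. It was the 1 gene called of 21 MEF2 and cardiac transcription factors (4.76%, against 6.65% of all genes). Of 9 measured imprinted growth genes, Mest, below detection in sham and at least 2.36-fold higher, and Grb10 (0.74), with its call lost in 4 alternatives, rose. They were 22.2% of the list, against 2.74% of all genes called higher.

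Of 21 immediate early genes 4 fell, against 3.91% of all genes, and 0 rose: Klf4 (-0.96), Zfp36 (-0.83), Klf2 (-0.81) and Nr4a1, which was below detection in TAC_BIX and at least 1.28-fold lower. Nr4a1 lost its call in 4 alternatives, the authors' processed values among them. Of 30 cell cycle genes 2 were called (6.67%, against 6.65% of all genes called in either direction). These were the cyclin genes Ccnd2 (1.18) and Ccnd1 (0.77), which rose, and 0 fell. The share of all genes called higher was 2.74%. The share called was 11.8% of 17 endoplasmic reticulum chaperone genes, 9.09% of 22 heat shock genes and 16.7% of 24 oxidative stress genes. The chaperone genes Calr (1.26) and Pdia4 (1.18) rose, Pdia4 with its call lost in 4 alternatives. Of the heat shock genes Hspb7 (0.84), a small chaperone of heart muscle, rose and Hspe1 (-1.55), the mitochondrial co-chaperonin, fell. Of the oxidative stress genes Nqo1 (1.04) rose, and Txn1 (-1.10), Txnrd1 (-0.72) and Sod1 (-0.69) fell, Sod1 with 1 of 2 kept probes below 0 and Txnrd1 with its call lost in 6 alternatives. Insig1, of sterol sensing, rose by 1.11 (1 of 13 sterol genes, detected on 1 sham array), Klhl41 rose by 0.79 (1 of 12 atrophy and ubiquitin ligase genes), and 0 of 24 autophagy and lysosome genes and 0 of the 26 in the proteasome list were called. The calls of Insig1 and Klhl41 were lost in 6 and 4 of the 11 alternatives. The share called was 7.69% in the sterol list and 8.33% in the atrophy list, against 6.65% of all genes.

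**Figure D5:**
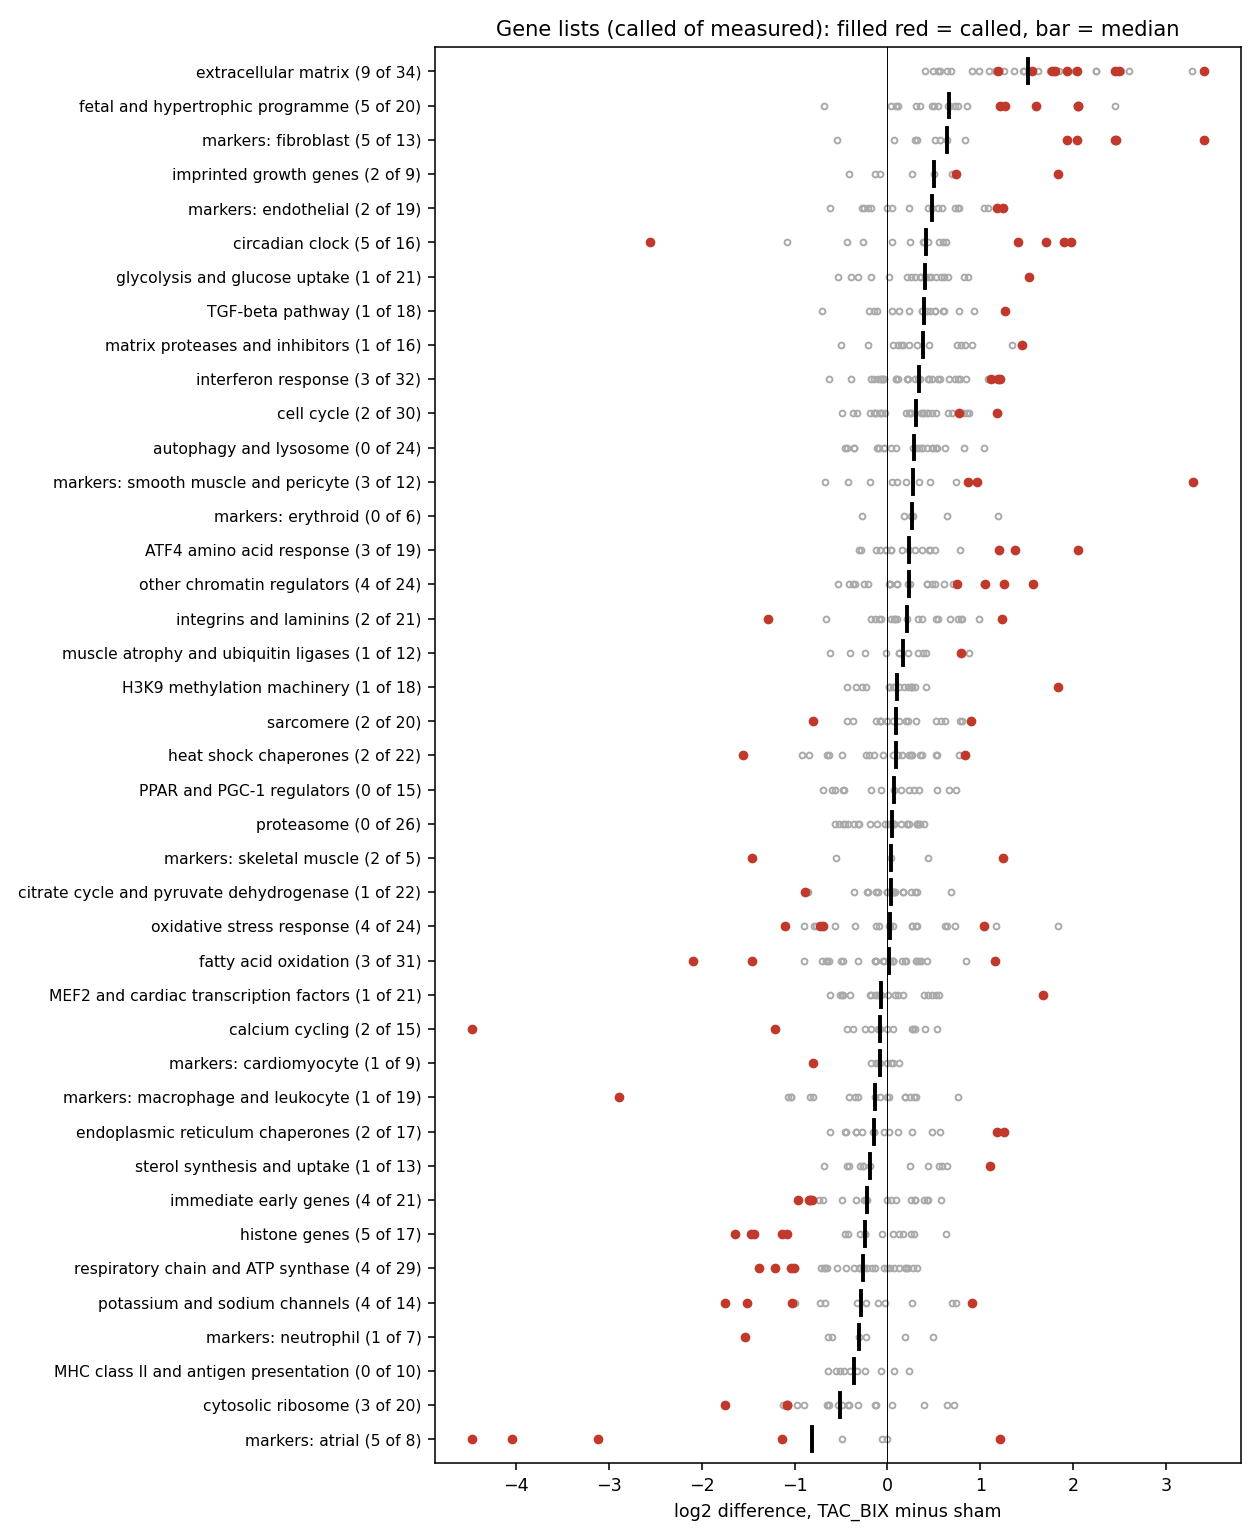
Log2 difference, TAC_BIX minus sham (x axis), of every measured gene in the gene lists with at least 5 measured genes (rows, with called of measured); filled red points were called, open points were not, and the black bar is the median. The extracellular matrix list is at the top with a median of 1.51 and the atrial markers at the bottom with -0.81.

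The other genes among the 15 largest falls, provisional symbols left out, had varied roles. Ano10, an anoctamin membrane protein gene, was at 8.03 and 7.40 in TAC_BIX, 8.24 and 7.89 in TAC_DMSO and 9.88 and 11.47 in sham, where the 2 arrays differed widely. Hamp, which encodes the iron hormone hepcidin, was below detection in TAC_BIX and at least 3.56-fold lower, and Lypd2 was at least 3.15-fold lower on the same ground. Ttll1 (-2.13), of tubulin modification, Adam20 (-2.01), Scgb1c1 (-1.94), a secretoglobin gene, and Smim27 (-1.87) complete them. Adam20 was not called on the authors' processed values (adjusted p = 0.0535) or with no detection filter (0.0504).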

How the data were processed

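Total RNA of cardiomyocyte-enriched populations was labelled and hybridised to 6 Illumina arrays, 2 per group. The authors deposited a table of average bead signal (intensity) per probe, not normalized between arrays, with a detection p-value per probe and array. They also deposited a table of processed log2 values with equal quantiles on all arrays, whose exact steps the labels do not state and which served as an alternative. GenomeStudio 2011.1, lumi and limma are named, without roles, in the submitters' processing notes.

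Here neqc (limma 3.58.1, R 4.3.3, offset 16) corrected the intensities for background and normalized them by quantiles. The negative-control background was inferred from the detection p-values, since no control probes were used here. Of 45281 probes, 34885 had 1 gene symbol, 18 several and 10378 none in the platform annotation, and 34807 matched RefSeq by Entrez ID. The 19273 probes with detection p under 0.05 on at least 2 of 6 arrays were kept, 16446 of them with 1 gene, and each of the 10538 genes was represented by its brightest probe. The limma fit (lmFit and eBayes, two-sided) used all 6 arrays, with 3 residual and 4.62 prior degrees of freedom. Benjamini-Hochberg adjustment covered all genes, with calls made under 0.05. With 2 arrays per group, the p-values rest on the spread between replicate arrays of all groups, TAC_DMSO included. That spread is moderated by the prior, which is drawn from all genes. A fold against a group in which both arrays were below detection is given as a lower bound, set against the lowest detected signal. The number of arrays limits the precision, and no slide or scan is named in the labels. A fit without 1 array of a group takes that group's spread from the other groups.

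The genes named are first the 15 largest rises and 15 largest falls among called genes, with provisional symbols left out. Of the called genes, 32 had such symbols. Also named are a panel of 11 genes and up to 4 called genes per list (all where up to 5 were called). Other genes were named for contrast after their values were seen. The groups, lists and families were chosen with earlier results of these data known. Families by symbol and bins of gene span were added after their values were seen. Replicate numbers were not shown to pair the arrays, as the deviations of same-numbered TAC_BIX and sham arrays correlated at 0.0863. This value cannot decide whether same-numbered arrays shared a slide or scan, which the labels do not name. Other normalizations, filters, probe rules, fits and the removal of each array were tried.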

Additional observations from a re-analysis of the deposited data

How the results depend on the processing

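With the mean of kept probes, 699 of the 701 genes called in TAC_BIX minus sham kept their direction. In the rest of the 17 alternatives all that were tested did, and the stricter detection filters tested 683 and 684. Only alternatives that changed the values or the probes could change a direction. The replicate block, the intensity trend and the fits without TAC_DMSO arrays leave the difference as it is. Removing 1 TAC_BIX or sham array cannot reverse groups that do not overlap. The number called moved more. It was 997 (438 higher, 559 lower) with an offset of 50, 1294 (371 higher, 923 lower) with median scaling, 369 (140 higher, 229 lower) with no detection filter and 1136 (502 higher, 634 lower) with an intensity trend and robust prior. Median scaling moved the median of all genes to -0.14, and the share higher among the genes called was 28.7% there against 41.2%. With the replicate number as a block, 253 were called (95 higher, 158 lower), 249 of them among the 701; the numbers were not shown to pair the arrays, and the correlation of deviations was 0.0863 for TAC_BIX with sham, -0.156 for TAC_BIX with TAC_DMSO and -0.243 for TAC_DMSO with sham. Leaving out 1 array at a time gave 0 to 738 called, 0 to 328 higher and 0 to 410 lower, the 738 without either TAC_DMSO array. On the authors' processed values 820 were called, 485 of them among the 701. A wider set held the genes named by rule and up to 4 genes of smallest p per list, called or not. In this set, 568 of the values for TAC_BIX minus sham lost their call under an alternative, 124 gained one and 2683 did neither. Genes of this set that were not called at the main settings could not lose a call. In TAC_BIX minus TAC_DMSO 380 genes were called with median scaling, 563 with an offset of 50, 642 on the authors' values, 699 with the trend and 709 with log2 quantile values, against 0. The cause of these shifts was not tested. The size of a difference also moved with the settings. The smallest difference over the 17 alternatives was 1.19 for Meox1 and 0.61 for Asns, against 2.46 and 2.06. Myl4 stayed between -3.29 and -2.84. Folds against a group with both arrays below detection are bounds. Differences of genes detected on 1 array of a group, such as Retnla, Arntl, Asns and Angptl7, include a signal below detection. Signals near 14.98 are compressed.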
